A study of Mus musculus with 16 samples.

Results

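The interferon-stimulated genes are the genes that cells switch on when they sense interferon. A list of 46 of them was taken by gene symbol from the 37003 genes of a count table of sorted mouse brain endothelial cells (bECs), and every one of the 46 was found. All 46 also passed a filter on low counts that left 31085 genes for testing. The rule takes genes by name and sets no threshold on a measured value, but the list was drawn up with earlier results of these data known. The members are spread over the genome, with 9 on chromosome 11, 5 each on chromosomes 5 and 16, and 4 each on chromosomes 3, 7 and 12.

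Type I interferons act through a receptor made of IFNAR1 and IFNAR2, whose kinases JAK1 and TYK2 activate STAT proteins, among them STAT2. A complex that contains STAT2 and IRF9 binds the interferon-stimulated response element (ISRE) in the promoters of many antiviral genes, while interferon gamma acts at gamma-activated sites (GAS). Endothelial cells of the brain carry these receptors, and the antiviral proteins it controls include the IFIT, OAS, MX and IFITM families, the ubiquitin-like ISG15, the guanylate-binding proteins (GBP) and the immunity-related GTPases (IRG).

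The study compared bECs of adult mice of both sexes with and without the transcriptional coactivators YAP (gene Yap1) and TAZ (gene Wwtr1), after a sham operation or after middle cerebral artery occlusion (MCAo), a model of ischemic stroke with 30 minutes of occlusion followed by reperfusion. YT-iKO mice carried floxed Yap and Wwtr1 alleles with the Pdgfb-iCreERT2 transgene (named Pdgfb-iCreER-eGFP in the methods of the study, so that it also carries eGFP), in which the Pdgfb promoter drives a tamoxifen-inducible Cre recombinase in endothelium, and CTRL mice were littermates with the same floxed alleles and without the transgene. All 4 groups received tamoxifen before the operation. Cells were sorted 72 hours after the operation as DAPI-, CD45- and CD31+, from the ischemic MCA territory and the matching contralateral area or from sham tissue. Each library held the pooled cells of 2 to 4 mice, with 4 libraries for each genotype and operation, 16 in all (CTRL sham and MCAo, YT-iKO sham and MCAo), so that p-values measure the spread between pools. In such bulk RNA, fewer cells that use a gene and less of its RNA per cell cannot be told apart.

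The total count per library ran from 11418262 to 23074547 with a median of 16441012. Levels are given as CPM, counts relative to the size of the library, scaled by TMM factors, which edgeR computes from the genes tested. The mean level of Yap1 was 111.8 CPM in CTRL sham and 49.3 CPM in YT-iKO sham, and that of Wwtr1 was 265 and 72.1 CPM. The 10 endothelial markers summed to between 9517 and 20479 CPM in the 16 libraries, against 22.3 to 40.2 CPM for 10 microglia and macrophage markers and 3.80 to 27.6 CPM for 10 leukocyte markers. Libraries differed in an even background of counts, measured on 1466 olfactory, vomeronasal and taste receptor genes at 0.0413 to 0.421 CPM per kilobase of exon. Because TMM factors from all genes moved with this background, each result was also computed with TMM factors computed on only 9132 genes whose mean was 10 CPM or more, called here the abundant-gene scale.

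The promoter letters on which the pathway acts are shown first, for the members given library by library below that have a match, and for Ifitm1. Windows of 250 bases before to 50 bases after the RefSeq start (RefSeq, GRCm38.p6) were at hand for 34 of the 46 members. They were searched on both strands for the ISRE core, which is GAAA, any 2 bases and GAAA, and for the GAS core, which is TTC, any 3 bases and GAA. The ISRE core was found in 18 of the 34 members (52.9%) and in 1079 of 27025 genes with a window (3.99%), or in 3.44% of all 32851 windows. The GAS core was found in 9 members (26.5%) and in 9.55% of all genes, and 6 members held both. In the stretches that follow, read 5′ to 3′ on the strand of the gene, capitals mark the ISRE core, which is spelled TTTC, any 2 bases and TTTC where it lies on the other strand. Isg15 and Bst2 hold overlapping copies, so their capitals run on.
Isg15, chr4:156200863-156200908, minus strand: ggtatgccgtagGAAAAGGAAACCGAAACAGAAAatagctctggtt
Ifit1, chr19:34640773-34640825, plus strand: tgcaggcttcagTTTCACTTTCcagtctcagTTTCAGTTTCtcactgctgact
Ifit3, chr19:34583361-34583428, plus strand: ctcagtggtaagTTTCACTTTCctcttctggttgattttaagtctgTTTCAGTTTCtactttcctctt
Bst2, chr8:71537575-71537614, minus strand: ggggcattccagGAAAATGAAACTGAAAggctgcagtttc
Gbp2, chr3:142620592-142620625, plus strand: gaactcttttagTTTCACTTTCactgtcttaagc
Irgm2, chr11:58214901-58214934, plus strand: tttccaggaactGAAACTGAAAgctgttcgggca
Stat2, chr10:128270264-128270297, plus strand: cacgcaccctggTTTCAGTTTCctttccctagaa
Ifitm2, chr7:140955986-140956019, minus strand: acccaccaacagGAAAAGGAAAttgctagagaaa
Ifitm3, chr7:141010715-141010743, minus strand: gGAAAAGGAAActtctgaGAAACCGAAAc
Ifitm1, chr7:140968016-140968075, plus strand: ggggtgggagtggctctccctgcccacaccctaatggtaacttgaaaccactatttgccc

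The stretch of Isg15 holds 3 overlapping copies of the core, and those of Ifit1, Ifit3 and Bst2 hold 2 each. The copies of Ifitm3 begin 3 and 20 bases past the start, whereas that of Ifitm2 begins 46 bases before it and that of Stat2 begins 222 bases before it. Ifitm1, whose stretch is the 60 bases before its start and is shown for comparison with its paralogs, had no match in its window, nor had Irf7 or Irf9. The stretch of Ifitm1 lies inside the annotated span of the gene, which starts at 140967221, and the bases before that start were not searched. A match describes letters only, and no match says only that these letters are not in this window.

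The members were well expressed over these libraries. Their mean level over the 16 libraries was at least 10 CPM for 41 of 46 and at least 100 CPM for 15, and the median member stood at the 92.1 percentile of the genes tested. Per kilobase of exon, the mean level in CTRL sham was highest for Ifitm3, a membrane protein that blocks the entry of viruses, at 155 CPM per kb. Next came Gbp3, a guanylate-binding protein, at 79.6 CPM per kb, Ifit3, which binds foreign RNA together with IFIT1, at 49.8 CPM per kb, and Gbp2 at 42.7 CPM per kb. At the other end stood Zbp1, a sensor of Z-form nucleic acid, at 3.41 CPM per kb, Ifitm1 at 1.37 CPM per kb, Gbp6 at 0.878 CPM per kb, Mx1 at 0.793 CPM per kb and Oas3 at 0.336 CPM per kb. For Oas3, an enzyme that makes the activator of RNase L, the even background would account for a median of 63.4% of its counts, and for Gbp6 and Mx1 for 26.7% and 20.8%. It would account for under 5% of the counts of 41 members.

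**Figure D1:**
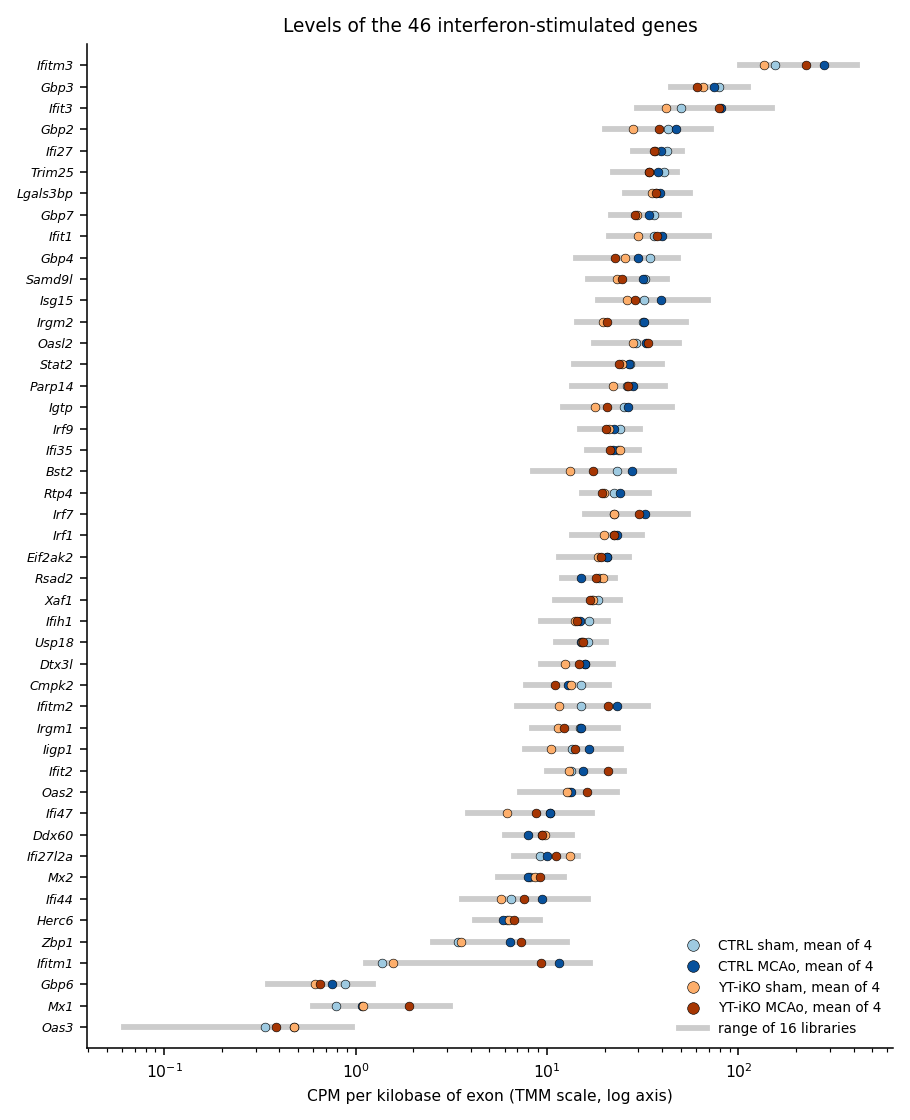
Level of each of the 46 members in CPM per kilobase of exon on a log axis, with the mean of each group of 4 libraries as a point and the range over the 16 libraries as a grey bar. Ifitm3 stood highest in CTRL sham at 155 CPM per kb and Oas3 lowest at 0.336 CPM per kb, and Ifitm1 shows the widest gap between sham and MCAo groups.

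The first question was which members responded to MCAo. Ifitm1, which encodes an antiviral membrane protein found on the cell surface, was the member that rose, and it did so in both genotypes. In CTRL bECs its mean went from 1.50 ± 0.264 CPM (SD, n = 4) after sham to 12.6 ± 5.41 CPM after MCAo, and in YT-iKO bECs from 1.72 ± 0.447 to 10.2 ± 5.89 CPM. Of the 31085 genes tested, 0.183% were called higher in CTRL and 0.277% in YT-iKO at an adjusted p under 0.1, against 1 of 46 members in each comparison. No member was called lower by edgeR with all 4 groups in the model. Limma-voom with sample weights called 12 members in CTRL and 6 in YT-iKO, but it also called 24.2% and 18.1% of all genes.

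Ifitm1 (ENSMUSG00000025491) lies on chromosome 7 of GRCm38 from 140967221 to 140969825. It had 1.66, 1.25, 1.79 and 1.30 CPM in replicates 1 to 4 of CTRL sham, 18.4, 13.2, 5.36 and 13.5 CPM in CTRL MCAo, 2.27, 1.24, 1.88 and 1.52 CPM in YT-iKO sham, and 13.6, 5.01, 5.31 and 16.6 CPM in YT-iKO MCAo. Every MCAo library stood above every sham library, and within the MCAo groups CTRL replicate 3 and YT-iKO replicates 2 and 3 were the low ones. The counts behind these levels were 20 to 26 after sham and 79 to 267 after MCAo in CTRL, and 22 to 47 and 80 to 272 in YT-iKO. In CTRL this was a log2 fold change of 3.07 (SE 0.41), or 8.42-fold, with an adjusted p of 0.00106 from edgeR's quasi-likelihood test. It was 2.55 (SE 0.40) in YT-iKO, or 5.85-fold, with an adjusted p of 0.00413. With any 1 of the 16 libraries left out, the log2 fold change stayed between 2.89 and 3.30 in CTRL and between 2.21 and 2.77 in YT-iKO, and the adjusted p was at most 0.0394. The YT-iKO call was lost when only the 2 YT-iKO groups were fitted (adjusted p = 0.11), a fit that called 0.0624% of the genes it tested. With the even background taken off, the log2 fold changes were 3.27 and 2.77.

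Its paralogs Ifitm2 and Ifitm3 lie near it on chromosome 7, from 140954837 to 140955987 and from 141009586 to 141010770, and restrict viruses in endosomal membranes. Ifitm3 had 111, 112, 96.1 and 101 CPM in CTRL sham, 225, 136, 118 and 281 CPM in CTRL MCAo, 109, 69.3, 76.5 and 112 CPM in YT-iKO sham, and 164, 116, 120.4 and 213 CPM in YT-iKO MCAo. All MCAo libraries of a genotype were above all its sham libraries, by a narrow margin in CTRL (118 against 112 CPM) and in YT-iKO (116 against 112 CPM). Log2 fold changes were 0.85 (SE 0.27) in CTRL and 0.74 (SE 0.27) in YT-iKO, and neither passed the test across all genes (adjusted p = 0.618 and 0.889). On the abundant-gene scale, where 1.78% of all genes were called in CTRL and 1.72% in YT-iKO, Ifitm3 was called in both genotypes, with a log2 fold change of 0.91 (SE 0.17, adjusted p = 0.00947) in CTRL and of 0.66 (SE 0.17, adjusted p = 0.0715) in YT-iKO. Without CTRL MCAo replicate 4 the CTRL value was 0.60 with TMM factors from all genes. On the abundant-gene scale without that library it was 0.71 (SE 0.14, adjusted p = 0.0348).

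Ifitm2 had 10.7, 10.2, 9.79 and 8.64 CPM in CTRL sham, 22.1, 10.5, 10.6 and 17.3 CPM in CTRL MCAo, 11.4, 4.55, 5.38 and 8.83 CPM in YT-iKO sham, and 14.1, 8.52, 9.65 and 22.2 CPM in YT-iKO MCAo. The groups overlapped in both genotypes, and on the abundant-gene scale they did not. Its log2 fold change was 0.62 (SE 0.32, adjusted p = 1) in CTRL and 0.85 (SE 0.32, adjusted p = 0.953) in YT-iKO.

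**Figure D2:**
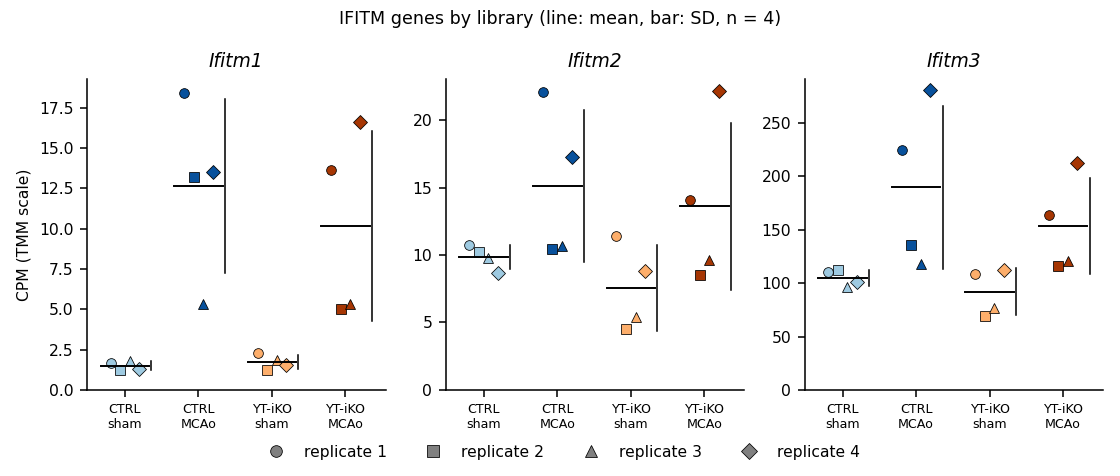
CPM of Ifitm1, Ifitm2 and Ifitm3 in each of the 16 libraries, with the replicate number as the symbol, the group mean as a line and the SD (n = 4) as a bar. Ifitm1 had 1.24 to 2.27 CPM in all sham libraries and 5.01 to 18.4 CPM in all MCAo libraries, while the ranges of Ifitm2 overlap.

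The fourth member of the membrane-bound group was Bst2, which encodes tetherin, a protein that holds budding viruses at the cell surface. All 4 members of this group had a log2 fold change above 0 after MCAo in both genotypes, with a median of 0.74 in CTRL and 0.79 in YT-iKO, but in CTRL that of Bst2 was −0.09 without CTRL MCAo replicate 4. Genes that share long near-identical stretches could have exchanged reads. Of the near copies of Ifitm1, Gm7676 shares a stretch of 319 bases and had group means of 0.237 to 0.344 CPM.

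The IFIT family binds RNA that lacks the marks of the host. Ifit3 (chromosome 19, 34583531 to 34588731) had 81.1, 88.6, 95.2 and 82.8 CPM in CTRL sham, 99.4, 104, 99.4 and 260.2 CPM in CTRL MCAo, 78.2, 72.9, 51.6 and 89.6 CPM in YT-iKO sham, and 79.3, 155, 148 and 171 CPM in YT-iKO MCAo. In CTRL the groups did not overlap, but 1 library held most of the difference, and in YT-iKO replicate 1 of MCAo lay among the sham libraries. Ifit3 had a log2 fold change of 0.70 (SE 0.30, adjusted p = 1) in CTRL, where it was 0.21 without MCAo replicate 4. It was 0.92 (SE 0.30, adjusted p = 0.563) in YT-iKO. A near copy, Ifit3b, shares a stretch of 1700 bases at 97.8% identity and had log2 fold changes of 0.67 and 0.84, so reads of these genes may have been divided between them.

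Ifit1 had 96.8, 104, 99.6 and 83.1 CPM in CTRL sham, 79.3, 82.6, 73.8 and 187 CPM in CTRL MCAo, 85.4, 83.0, 55.8 and 92.6 CPM in YT-iKO sham, and 74.8, 91.9, 107 and 123 CPM in YT-iKO MCAo. In CTRL, 3 of the 4 MCAo libraries lay below every sham library and replicate 4 above them all. Its log2 fold change was 0.14 (SE 0.27) in CTRL and 0.33 (SE 0.27) in YT-iKO, and the CTRL value was −0.29 without MCAo replicate 4. Ifit2 had 0.20 (SE 0.24) and 0.67 (SE 0.24, adjusted p = 0.889). Thus all 3 IFIT genes were above 0 in both genotypes, but only 1 of 3 was in CTRL without that library, whereas all 3 were in YT-iKO whichever library was left out.

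Isg15, whose product is attached to other proteins as a tag, had 23.0, 27.9, 22.5 and 23.5 CPM in CTRL sham, 23.4, 20.8, 21.9 and 52.6 CPM in CTRL MCAo, 20.2, 16.9, 14.0 and 28.4 CPM in YT-iKO sham, and 18.0, 21.9, 20.4 and 27.4 CPM in YT-iKO MCAo. CTRL MCAo replicate 4 again stood alone, and the other 15 libraries lay between 14.0 and 28.4 CPM. After MCAo its log2 fold change was 0.29 (SE 0.27) in CTRL and 0.14 (SE 0.27) in YT-iKO, and the CTRL value was −0.14 without that library. The genes that attach or remove ISG15 or work beside it (Usp18, Herc6, Trim25, Dtx3l and Parp14) had log2 fold changes between −0.12 and 0.28, and none was called by edgeR.

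Among the transcription factors, Irf7, which amplifies the type I response, had 83.5, 91.2, 82.6 and 80.3 CPM in CTRL sham, 88.9, 98.9, 96.8 and 206 CPM in CTRL MCAo, 91.8, 85.4, 59.9 and 99.7 CPM in YT-iKO sham, and 66.0, 125, 122 and 145 CPM in YT-iKO MCAo. In YT-iKO, 3 MCAo libraries lay above all sham libraries and replicate 1 among the lowest. The log2 fold change was 0.54 (SE 0.27) in CTRL, or 0.16 without MCAo replicate 4, and 0.44 (SE 0.27) in YT-iKO.

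Irf9 had 133, 134, 132 and 118 CPM in CTRL sham, 130.4, 97.0, 92.4 and 165 CPM in CTRL MCAo, 131, 125, 80.1 and 119.5 CPM in YT-iKO sham, and 105, 92.0, 94.5 and 148 CPM in YT-iKO MCAo. Stat2 had 177, 174, 160.3 and 135 CPM in CTRL sham, 161, 129, 107 and 237 CPM in CTRL MCAo, 174, 187, 81.5 and 139 CPM in YT-iKO sham, and 117, 122, 129 and 199 CPM in YT-iKO MCAo. These subunits of the ISRE-binding complex overlapped in every pair of groups, with log2 fold changes after MCAo of −0.09 and −0.05 for Irf9 (SE 0.23 each) and −0.03 and −0.04 for Stat2 (SE 0.27 each). Without CTRL MCAo replicate 4 the CTRL values were −0.28 for Irf9 and −0.30 for Stat2, and without YT-iKO sham replicate 3 the YT-iKO values were −0.23 and −0.27. Irf1, which acts mainly after interferon gamma, had 0.06 and 0.17 (SE 0.23 each), or −0.13 and −0.02 without those libraries.

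Other antiviral effectors and sensors varied in both directions, and none was called by edgeR. Zbp1 had the largest fitted values after Ifitm1, 0.92 (SE 0.36, adjusted p = 1) in CTRL, or 0.34 without MCAo replicate 4, and 1.05 (SE 0.36, adjusted p = 0.716) in YT-iKO. Its levels ran from 8.90 to 17.3 CPM in CTRL sham and from 13.2 to 45.0 CPM in CTRL MCAo, and from 11.4 to 14.0 CPM in YT-iKO sham and 9.98 to 33.6 CPM in YT-iKO MCAo, so the groups overlapped. Mx1, a GTPase that blocks viral replication and a gene whose near copy Mx2 shares part of its sequence, had 0.44 (SE 0.36) and 0.80 (SE 0.35). Rsad2, which encodes viperin, had −0.31 (SE 0.22) and −0.13 (SE 0.22), which became −0.56 when CTRL MCAo replicate 4 was left out, and −0.28 when YT-iKO sham replicate 3 was. The 5 GBP genes had log2 fold changes from −0.21 to 0.15 in CTRL and from −0.18 to 0.44 in YT-iKO, and the 5 IRG genes from −0.01 to 0.30 and from 0.06 to 0.51. Leaving out CTRL MCAo replicate 4 lowered the CTRL value of 44 of the 46 members, and leaving out YT-iKO sham replicate 3 lowered the YT-iKO value of 44. These counts cover the members only. Without YT-iKO sham replicate 3, 58.2% of the genes with a mean of 10 CPM or more lay below 0 after MCAo in both genotypes. With all libraries this share was 36.1%, and without CTRL MCAo replicate 4 it was 36.8%.

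Over all 46 members the median log2 fold change after MCAo was 0.03 in CTRL, with 27 above 0, and 0.09 in YT-iKO, with 32 above 0. The median of all genes tested was 0.07 and −0.02, and that of the 9132 abundant genes −0.09 and 0.05. In CTRL the median of the members was −0.20 without CTRL MCAo replicate 4 and 0.13 without replicate 3, and in YT-iKO it ran from −0.07 without sham replicate 3 to 0.15 without sham replicate 4. At an unadjusted p under 0.05 there were 4 members in CTRL and 7 in YT-iKO, all higher, against 3.50% and 3.01% of all genes. On the abundant-gene scale the median of all genes tested became 0.21 and −0.02, that of the members became 0.13 and 0.11, and 34 and 31 of the 46 were above 0.

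The response of a member in CTRL and in YT-iKO comes from separate libraries, and the values tended to share their sign. There were 24 members above 0 in both genotypes and 11 below 0 in both, that is 52.2% and 23.9%, against 29.3% and 36.1% of the abundant genes. The first of these tallies rested on 1 library, since without CTRL MCAo replicate 4 only 9 members (19.6%) were above 0 in both and 13 (28.3%) below 0 in both, against 21.9% and 36.8% of the abundant genes. Without YT-iKO sham replicate 3, 19 members (41.3%) were above 0 in both and 18 (39.1%) below. The abundant genes were then at 24.2% and 58.2%. Across the 46 members Pearson's r between both responses was 0.90, or 0.772 without Ifitm1, and it was 0.85 across the abundant genes. Genes are not independent replicates, so these values are given as a description.

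Libraries of MCAo and sham did not overlap, with MCAo higher, for 3 members in CTRL (Ifitm1, Ifitm3 and Ifit3) against 2.24% of all genes, and for 2 in YT-iKO (Ifitm1 and Ifitm3) against 0.785%. No member had MCAo lower without overlap, against 1.9% and 0.499% of all genes. On the abundant-gene scale Ifitm1, Ifitm2 and Ifitm3 were higher without overlap in both genotypes, against 4.69% of all genes in CTRL and 1.87% in YT-iKO. In the lower direction there were no members in CTRL, against 2.65%, and 1 in YT-iKO, Ifi35, against 1.31%.

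**Figure D3:**
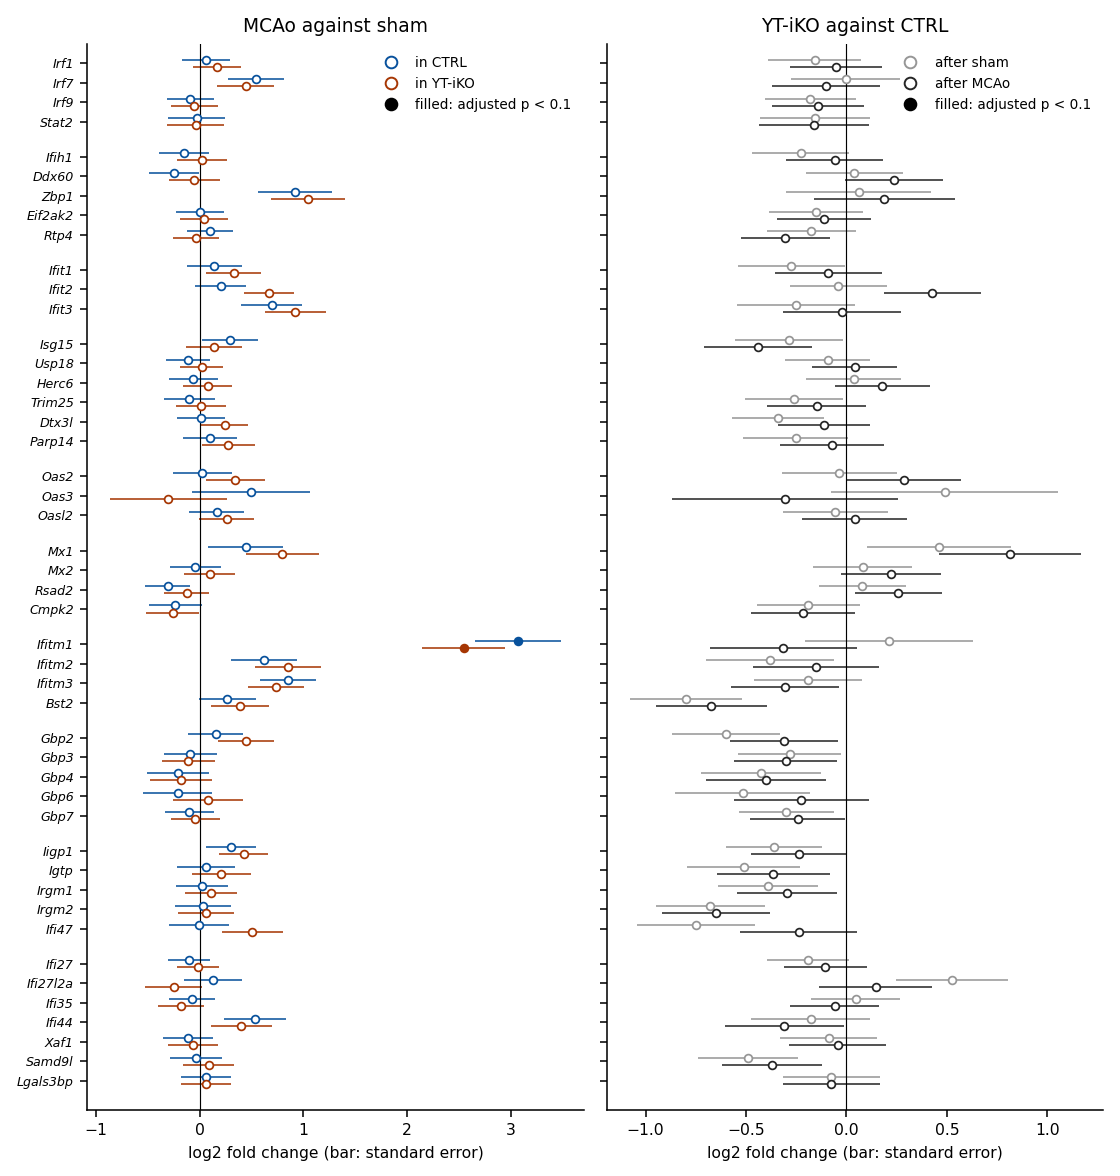
Log2 fold change with its standard error for the 46 members, grouped by role, for MCAo against sham in CTRL and in YT-iKO (left) and for YT-iKO against CTRL after sham and after MCAo (right). Filled points have an adjusted p under 0.1 in edgeR's quasi-likelihood test, and the only ones are those of Ifitm1 at 3.07 and 2.55.

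The second question was whether loss of YAP and TAZ moved the members. None was called by edgeR with all 4 groups in the model in either comparison of genotypes. There 0.0965% of all genes were called after sham and 0.0708% after MCAo. At an unadjusted p under 0.05 there were 4 members after sham, all lower in YT-iKO, and 3 after MCAo, of which 1 was higher, against 2.16% and 1.49% of all genes. DESeq2 also called none, against 0.176% of all genes after sham and 0.211% after MCAo. Limma-voom with sample weights called none after sham, against 0.46%, and 3 after MCAo (Ifit2 and Mx1 higher, Ifitm1 lower), against 0.827%. The members with an unadjusted p under 0.05 after sham were Bst2, Ifi47, Irgm2 and Gbp2.

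Bst2 (chromosome 8, 71534255 to 71537456) had 16.3, 22.7, 21.1 and 23.3 CPM in CTRL sham, 21.4, 19.4, 18.0 and 41.4 CPM in CTRL MCAo, 16.8, 10.1, 7.65 and 13.3 CPM in YT-iKO sham, and 13.8, 11.3, 15.5 and 22.2 CPM in YT-iKO MCAo. After sham, 3 YT-iKO libraries lay below all CTRL libraries and replicate 1 just among them. YT-iKO against CTRL gave a log2 fold change of −0.80 (SE 0.28, adjusted p = 0.99) after sham and −0.67 (SE 0.28, adjusted p = 1) after MCAo, where it was −0.32 without CTRL MCAo replicate 4.

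Irgm2, an IRG protein of intracellular membranes, lies on chromosome 11 from 58199618 to 58222782. It had 113, 119, 131 and 103 CPM in CTRL sham, 109, 96.8, 73.3 and 196 CPM in CTRL MCAo, 83.7, 65.7, 52.9 and 88.8 CPM in YT-iKO sham, and 55.6, 63.9, 78.9 and 105 CPM in YT-iKO MCAo. The sham libraries of the genotypes did not overlap and the MCAo libraries did. The log2 fold change was −0.68 (SE 0.27, adjusted p = 0.99) after sham and −0.65 (SE 0.27, adjusted p = 1) after MCAo, or −0.30 without CTRL MCAo replicate 4. With only the sham groups in the model Irgm2 was called after sham (−0.64, SE 0.15, adjusted p = 0.0788), together with 0.506% of the 24922 genes tested there.

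Gbp2, whose product attacks the membranes of pathogen vacuoles, had 100.2, 106, 129 and 93.9 CPM in CTRL sham, 121, 85.1, 90.0 and 181 CPM in CTRL MCAo, 82.6, 62.4, 50.4 and 87.7 CPM in YT-iKO sham, and 60.2, 84.7, 105 and 135 CPM in YT-iKO MCAo. The sham libraries did not overlap on the TMM scale but did on the abundant-gene scale. The log2 fold change was −0.60 (SE 0.27, adjusted p = 0.99) after sham and −0.31 (SE 0.27, adjusted p = 1) after MCAo, or −0.04 without CTRL MCAo replicate 4.

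**Figure D4:**
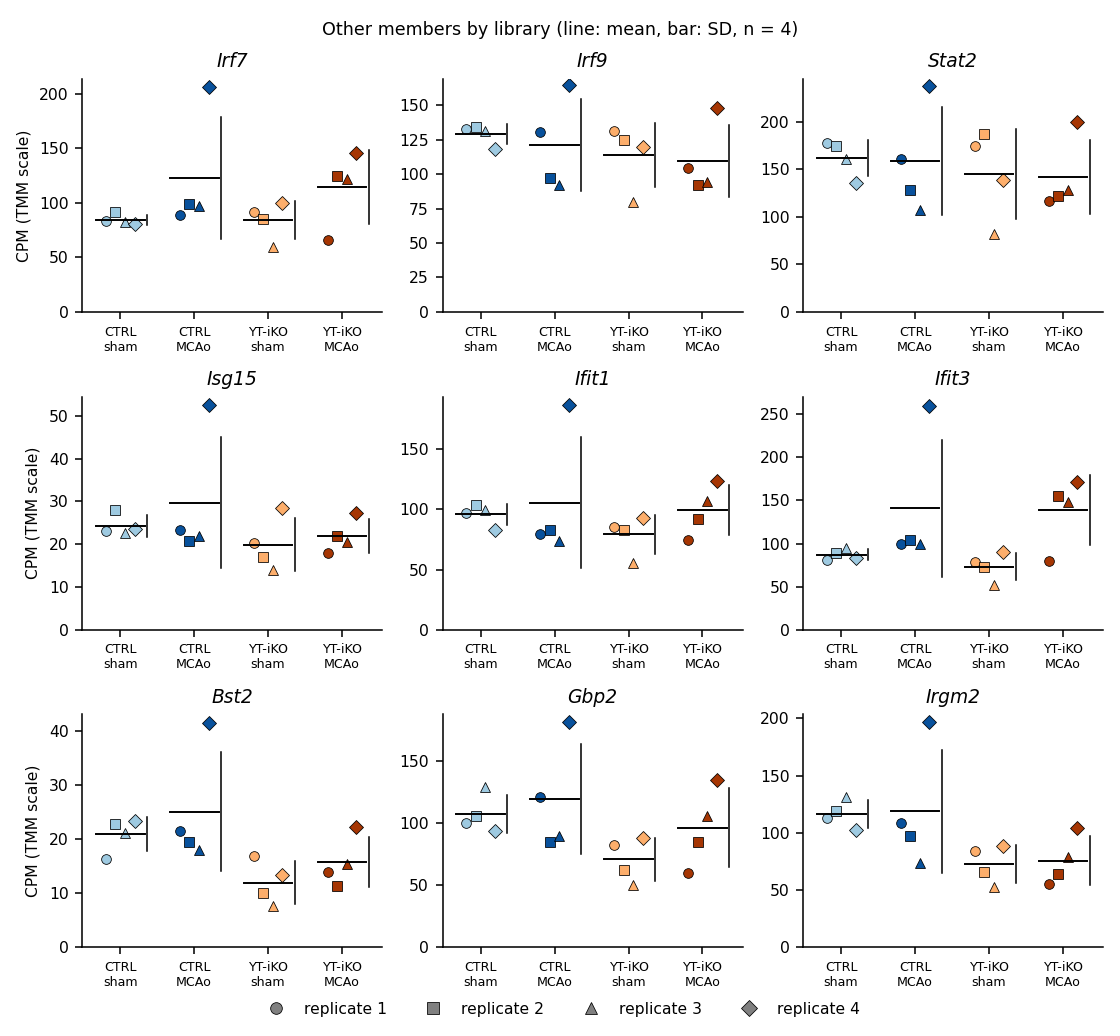
CPM of 9 further members in each of the 16 libraries, drawn as for the IFITM genes with group means and SD (n = 4). CTRL MCAo replicate 4 stands above the other libraries of its group in all 9 panels, for example at 206 CPM for Irf7 against 88.9 to 98.9 CPM, and Irgm2 in YT-iKO sham at 52.9 to 88.8 CPM lies below CTRL sham at 103 to 131 CPM.

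In 3 of the 10 role groups every member had the same sign in both comparisons of genotypes. The 4 transcription factors were all below 0, with medians of −0.16 after sham and −0.12 after MCAo, and Irf7 lay at −0.0039 after sham. Their medians on the abundant-gene scale were −0.03 and −0.08 and 1 of them, Irf7, was above 0 after sham, and all 4 were above 0 after MCAo without CTRL MCAo replicate 4 (median 0.11). Irf7 and Stat2 were above 0 after sham without YT-iKO sham replicate 3 (0.14 and 0.05). Of the abundant genes, 20.8% were above 0 after sham and 51.9% after MCAo, or 53.6% and 51.2% on the abundant-gene scale. All 5 GBP genes and all 5 IRG genes had a log2 fold change below 0 in YT-iKO both after sham, with medians of −0.43 and −0.51, and after MCAo, with medians of −0.30 and −0.30. After sham they were all below 0 whichever library was left out and on the abundant-gene scale, where the medians were −0.29 and −0.37. With all libraries the values after sham ran from −0.60 to −0.28 for the GBP genes and from −0.75 to −0.36 for the IRG genes. Without YT-iKO sham replicate 3 they ran from −0.46 to −0.13 and from −0.57 to −0.23. After MCAo the medians were −0.04 and 0.00 without CTRL MCAo replicate 4, and 1 GBP gene and 3 IRG genes were then above 0. The near-identical GBP genes, Gbp4 and Gbp6 with Gbp8 and Gbp10, may also have exchanged reads. None of the 10 genes was called in any comparison by edgeR with all 4 groups in the model.

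The 10 endothelial markers moved with these groups, with all 10 below 0 after sham (median −0.32) and 9 of 10 below 0 after MCAo (median −0.18), and none of them was called by edgeR. Pericyte and smooth muscle markers summed to a median of 866 CPM in CTRL sham and 614 CPM in YT-iKO sham, with 3 of 8 above 0 after sham and 2 of 8 after MCAo. Astrocyte markers summed to 76.2 to 90.4 CPM in CTRL sham and 48.4 to 66.6 CPM in YT-iKO sham, without overlap, with 3 of 5 above 0 after sham and 0 of 5 after MCAo. The part of these markers in the values of the members was not tested. The median of the 46 members was −0.18 after sham, with 10 above 0, and −0.13 after MCAo, with 11 above 0, while the median of all genes tested was 0.11 and 0.03 and that of the abundant genes −0.13 and 0.01. On the abundant-gene scale the median of all genes became 0.30 and 0.08, that of the members −0.04 and −0.10, and 17 and 12 members were above 0. Without CTRL MCAo replicate 4 the median after MCAo was 0.10, with 30 above 0. Without YT-iKO sham replicate 3 the median after sham was −0.06, with 18 above 0, and 1 member in place of 4 had an unadjusted p under 0.05.

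The differences between genotypes after sham and after MCAo also come from separate libraries. There were 32 members below 0 in both and 7 above 0 in both, that is 69.6% and 15.2%, against 44.9% and 17.6% of the abundant genes. This tally also rested on CTRL MCAo replicate 4, since without it 14 members (30.4%) were below 0 in both and 8 (17.4%) above 0 in both, against 34.5% and 16.8% of the abundant genes. Without YT-iKO sham replicate 3, 28 members (60.9%) were below 0 in both and 11 (23.9%) above. The abundant genes were then at 42.0% and 30.4%. On the abundant-gene scale 60.9% of the members were below 0 in both, against 34.4% of the abundant genes. Groups did not overlap for 2 members after sham, Gbp2 and Irgm2, both lower in YT-iKO, against 2.22% of all genes, and for no member in the higher direction, against 1.63%. After MCAo no member was without overlap, against 0.566% of all genes higher and 0.415% lower. After sham 2 members were higher in YT-iKO without overlap on the abundant-gene scale, Rsad2 and Ifi35, against 2.9% of all genes, and 3 were lower, Bst2, Irgm2 and Samd9l, against 1.59%. After MCAo there was again none on that scale, against 1.48% higher and 1.73% lower.

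The test of a difference between genotypes in the response to MCAo called none of the 46 members and 0% of all genes, and no member had an unadjusted p under 0.05 by edgeR, against 0.373% of all genes. DESeq2 and limma-voom called no member either. For Ifitm1 this difference was −0.52 (SE 0.56, adjusted p = 1), for Ifit3 0.23 (SE 0.42) and for Oas3 −0.80 (SE 0.80). The median of the members was 0.11, with 34 above 0, and that of the abundant genes 0.14. It ran from −0.11 without YT-iKO MCAo replicate 4 to 0.30 without CTRL MCAo replicate 4, and was −0.01 on the abundant-gene scale.

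The members varied together within groups. The SD of a member (median over the members) was 11.2% of its mean after sham and 33.4% after MCAo in CTRL, and 24.6% and 26.3% in YT-iKO. Over the 1035 pairs of members, the deviations of log2(CPM + 1) from the group mean had a median Pearson r of 0.729, or 0.708 on the abundant-gene scale. Without CTRL MCAo replicate 4 these values were 0.638 and 0.653. The pairs share libraries and depth, and this is a description with no test. It covers the members only and was not set against other genes. On the abundant-gene scale Ifit3 and Irf7 were the most like the rest, with a median r to the other members of 0.873 and 0.864, and Oasl2 followed with 0.854. Ifitm1 (−0.40), Ifitm2 (−0.02) and Oas3 (0.17) were the least like the rest. The order depended on the scale, since with TMM factors from all genes Oasl2 came first (0.861), Ifit3 had 0.784 and Irf7 0.772, and the lowest were Oas3 (−0.63), Mx1 (−0.12) and Ifitm1 (0.23), while Ifitm2 had 0.48.

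CTRL MCAo replicate 4 was the highest library of its group for 41 of the 46 members, or 39 on the abundant-gene scale, with a median deviation of 0.57 (0.42). Among the exceptions was Ifitm1, which was highest in replicate 1. In YT-iKO MCAo, replicate 1 was the lowest library for 32 members, or 42 on the abundant-gene scale, with a median deviation of −0.37 (−0.57). Which library was high depended on the scale there, since replicate 4 was the highest for 40 members with TMM factors from all genes and for 3 on the abundant-gene scale, where replicate 2 was the highest for 28. YT-iKO sham replicate 3 was the lowest of its group for 40 members, but for 18 on the abundant-gene scale. These counts cover the members only and were not set against other genes. Endothelial markers too were lowest of their group in YT-iKO sham replicate 3 (10135 CPM) and highest in YT-iKO MCAo replicate 4 (19246 CPM). They were not highest in CTRL MCAo replicate 4 (18834 CPM, 20479 CPM in replicate 1). Nor were they lowest in YT-iKO MCAo replicate 1 (16875 CPM, 9517 CPM in replicate 2). The even background moved with the levels on the TMM scale. Over the 16 libraries Pearson's r with it was above 0 for 3 members (0.906 for Oas3, 0.643 for Mx1 and 0.154 for Zbp1) and below 0 for 43, with a median of −0.42 over the members and a lowest value of −0.92 for Trim25. Its part in the levels was not tested beyond this change of scale.

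**Figure D5:**
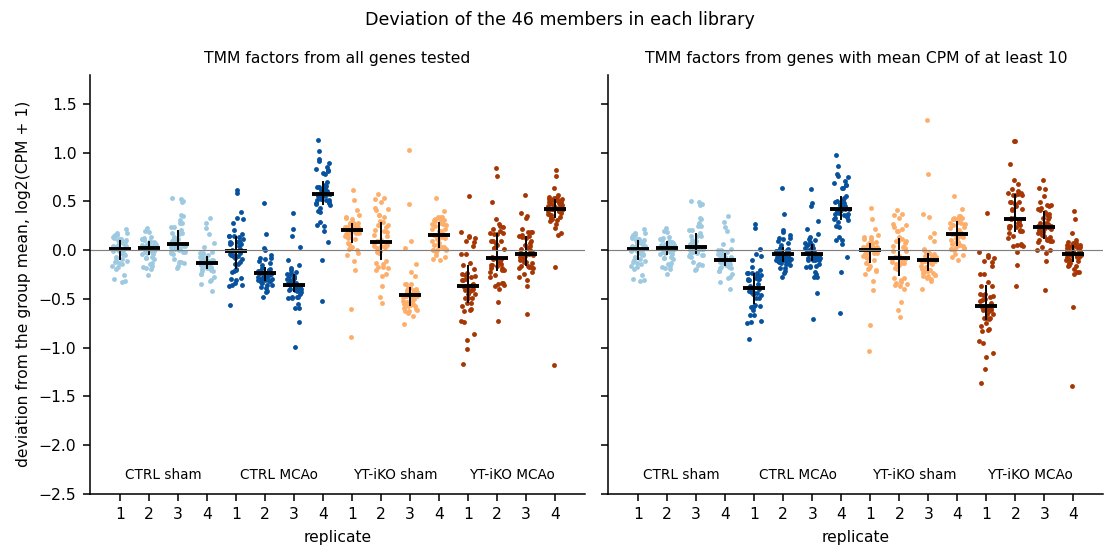
Deviation of each member from its group mean in log2(CPM + 1), 46 points per library, with the median as a bar and the quartiles as a line, for TMM factors from all genes tested (left) and for the abundant-gene scale (right). CTRL MCAo replicate 4 has a median of 0.57 on the left and 0.42 on the right, and YT-iKO MCAo replicate 1 has −0.37 and −0.57.

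The rest of the pathway was read from a list of ligands, receptors, signalling factors, sensors and chemokines. Of 7 interferon genes listed, 4 passed the filter (Ifng, Ifna1, Ifna2 and Ifnl2), with group means of 0.155 to 1.21 CPM, and none was called by edgeR. All 9 receptor and kinase genes were tested and none was called by edgeR, but on the abundant-gene scale the kinase gene Tyk2 was called lower after MCAo in CTRL (−0.31, adjusted p = 0.0645) and in YT-iKO (−0.40, adjusted p = 0.0131). Ifnar1, which encodes a chain of the type I receptor, had group means of 597.5 CPM in CTRL sham, 508 CPM in CTRL MCAo, 527 CPM in YT-iKO sham and 437 CPM in YT-iKO MCAo.

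Of 7 factors and inhibitors, 1 was called by edgeR, and it rose after MCAo in both genotypes. Socs3, an inhibitor of JAK kinases that cytokines induce, had 13.1 to 17.5 CPM in CTRL sham and 45.6 to 139 CPM in CTRL MCAo, and 5.45 to 7.57 CPM in YT-iKO sham and 37.6 to 140.1 CPM in YT-iKO MCAo. Its log2 fold change was 2.42 (SE 0.39, adjusted p = 0.00516) and 3.74 (SE 0.41, adjusted p = 1.89e-04). The YT-iKO value starts from a lower level, since after sham every YT-iKO library lay below every CTRL library. With only the sham groups in the model Socs3 was called lower in YT-iKO (−1.23, adjusted p = 0.00117), as by limma-voom (−1.27, adjusted p = 0.0129). It was not called there by edgeR with all 4 groups in the model. The abundant-gene scale added a call of Stat3, a factor that many cytokines activate, in CTRL (0.54, adjusted p = 0.00707) and in YT-iKO (0.66, adjusted p = 0.00119). Of 6 sensor genes, Sting1, the adaptor downstream of cytosolic DNA sensing, rose by a log2 fold change of 2.36 (SE 0.33, adjusted p = 0.00126) in CTRL and 2.16 (SE 0.33, adjusted p = 0.00295) in YT-iKO. The YT-iKO call of Sting1 was lost with only the 2 YT-iKO groups in the model (adjusted p = 0.112), which called 0.0624% of the genes it tested. Limma-voom called Sting1 lower in YT-iKO than in CTRL after MCAo (−0.91, adjusted p = 0.0293), and edgeR did not.

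Of 3 interferon-induced chemokines, Cxcl10 was called by edgeR in YT-iKO and not in CTRL. It had 0.894 to 1.48 CPM in CTRL sham, 1.22 to 2.28 CPM in CTRL MCAo, 1.01 to 1.43 CPM in YT-iKO sham, and 2.91, 5.39, 11.9 and 3.68 CPM in YT-iKO MCAo. Its log2 fold change was 2.38 (SE 0.42, adjusted p = 0.012) in YT-iKO and 0.52 (adjusted p = 1) in CTRL, and the difference of 1.86 (SE 0.59) did not pass the test (adjusted p = 1). After MCAo its YT-iKO libraries all stood above its CTRL libraries, with a log2 fold change of 1.67 (SE 0.41) that edgeR did not call (adjusted p = 0.378), whereas DESeq2 (1.65, adjusted p = 0.0233) and limma-voom (2.28, adjusted p = 2.13e-04) did. The rise in YT-iKO after MCAo was also called by DESeq2 (adjusted p = 1.13e-05), by limma-voom (adjusted p = 1.14e-04) and on the abundant-gene scale (adjusted p = 0.0238). It was called in 15 of the 16 fits with 1 library left out. The YT-iKO call was lost without YT-iKO sham replicate 2 (adjusted p = 0.102) and with only the 2 YT-iKO groups in the model (adjusted p = 0.318). That model called 0.0624% of the genes it tested.

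Markers of other cell types were set beside the response of Ifitm1. Fibroblast markers summed to 16.9 to 19.1 CPM in CTRL sham and 26.1 to 31.5 CPM in CTRL MCAo, so that they moved with Ifitm1 in CTRL. They summed to 17.0, 18.5, 34.8 and 18.4 CPM in replicates 1 to 4 of YT-iKO sham and to 26.0 to 34.0 CPM in YT-iKO MCAo. There replicate 3 of sham lay above every MCAo library and the other sham libraries lay below them all. Pericyte and smooth muscle markers summed to 734 to 896 CPM and 536 to 1422 CPM in the CTRL groups, and to 543 to 834 CPM and 476 to 1133 CPM in the YT-iKO groups. In replicates 1 to 4 they were at 1422, 999, 536 and 741 CPM after MCAo in CTRL, and at 1133, 476, 565 and 1059 CPM in YT-iKO. The libraries in which Ifitm1 was low after MCAo, CTRL replicate 3 and YT-iKO replicates 2 and 3, were also the lowest of their groups here. They were the lowest for endothelial markers too (12077, 9517 and 12305 CPM) and had the highest even background of their groups (0.319, 0.412 and 0.36 CPM per kb), so this order was not particular to these markers. Leukocyte markers summed to 11.6 to 13.2 CPM and 11.6 to 23.6 CPM in the CTRL groups, and to 10.6 to 27.6 CPM and 3.80 to 27.0 CPM in the YT-iKO groups. All 5 fibroblast markers were above 0 after MCAo in CTRL and 4 of 5 in YT-iKO, with medians of 0.79 and 0.74, and none was called by edgeR. Dcn, which encodes the matrix protein decorin, was called higher after MCAo by DESeq2 in CTRL (2.18, adjusted p = 0.00436) and in YT-iKO (2.09, adjusted p = 0.00759), and by limma-voom in both. With the 2 CTRL groups alone in the edgeR model Dcn and Col1a2 were called, and on the abundant-gene scale Dcn was called in CTRL. The astrocyte marker Gfap was also called higher after MCAo in CTRL by DESeq2 (1.15, adjusted p = 0.00789). On the abundant-gene scale it was called too (1.26, adjusted p = 0.0438), as with the 2 CTRL groups alone (1.15, adjusted p = 0.00231). The 2-group model also called the pericyte marker Kcnj8 (0.75, adjusted p = 0.0913). Of 5 astrocyte markers, 3 were above 0 after MCAo in CTRL. No marker of any list was at 0 in all libraries. The part of these cells in the level of Ifitm1 was not tested.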

How the data were processed

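Counts of RNA-seq reads per gene were deposited by the authors without normalization, for 16 libraries made with a SMART-Seq Ultra Low Input kit. The authors mapped reads with STAR 2.7.8a to GRCm38. The counting program, its strand setting, its handling of reads with several matches and its gene filter are not given in the sources used here. The reads carry no molecular identifiers, so counts are not counts of molecules. Genes were placed by GENCODE M21 on GRCm38.

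All 4 groups were compared in 1 model by edgeR 4.0.16 in R 4.3.3, with a quasi-likelihood test, TMM factors and filterByExpr (minimum count 10, minimum total count 15). P-values were adjusted by the Benjamini-Hochberg method over the 31085 genes tested, with a threshold of 0.1. Sums of CPM describe cell markers. For fold changes of Ifitm1 with the background taken off, the receptor-gene density times exon length was subtracted. The methods were tested on simulated data.

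Values in every library are given for members called in a comparison, for up to 3 members per direction with the largest change among those whose groups did not overlap, for the IFITM paralogs, and for Irf7, Irf9, Stat2, Isg15, Ifit1, Ifit3 and Bst2. The level of 1 gene of the pathway list is not reported here. The members, the lists and the tests were chosen with earlier results of these data known. Alternatives were DESeq2 1.42.0, limma-voom 3.58.1 with sample weights, RLE factors, abundant-gene TMM factors, other filters, an adjusted p under 0.05, 2-group models, a replicate block and each library left out.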

Additional observations from a re-analysis of the deposited data

Results flagged for a closer look

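In 7 of the 48 combinations of a named member and a group, 1 library stood apart from the other 3 by Dixon's criterion for 4 values, which chance meets in about 1 in 20 groups, and over all 46 members this was so in 14 of 184. CTRL MCAo replicate 4 was the high library for 5 of the 7, with Irf7 at 206 CPM, Ifit1 at 187 CPM, Ifit3 at 260.2 CPM, Isg15 at 52.6 CPM and Bst2 at 41.4 CPM. The other two were Irf9 in CTRL sham, where replicate 4 was low at 118 CPM, and Stat2 in YT-iKO MCAo, where replicate 4 was high at 199 CPM. The members rise and fall together among libraries, so these are not separate events.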

How the results depend on the processing

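The number of members called changed with some alternatives. In CTRL after MCAo, 2 were called by DESeq2, by abundant-gene TMM factors, by the model of 2 groups and, in an alternative added after the data were seen, by abundant-gene factors without CTRL MCAo replicate 4 (Ifitm1 and Ifitm3 in each). These alternatives called 0.549%, 1.78%, 2.52% and 0.775% of all genes they tested. Limma-voom called 12, of which 8 were lower, and 24.2% of all genes. In YT-iKO after MCAo, 6 were called by limma-voom (18.1% of all genes), 2 by abundant-gene factors (1.72%), 3 by those factors without CTRL MCAo replicate 4 (Ifit3, Ifitm1 and Ifitm3, 1.36%) and 0 by the model of 2 groups (0.0624%). For genotype, limma-voom called 3 after MCAo (Ifit2 and Mx1 higher, Ifitm1 lower) and the model of 2 groups called 1 after sham (Irgm2). Of 1536 values of named members under an alternative, 110 had the opposite sign, 14 of them without CTRL MCAo replicate 4, and 3 of the 110 were of members whose value lay over 1 SE from 0. By limma-voom, the genotype difference of Gbp2 after MCAo was 0.0446 and the CTRL response of Isg15 −0.0525. The latter was −0.14 without CTRL MCAo replicate 4, with a range of −0.14 to 0.44 over the libraries left out. The member median changed sign in 17 of 122 alternatives. Without CTRL MCAo replicate 4 it was 0.10 for genotype after MCAo and −0.20 for MCAo in CTRL, and by limma-voom −0.19 for MCAo in CTRL and −0.03 in YT-iKO. The causes were not tested. Replicate numbers were not read as pairs: the median correlation of deviations was 0.259 in 24 same-numbered pairs and −0.13 in 72 others, 17 of the 24 exceeded 0.1, and 9 of 16 libraries were closest to their own number. With a replicate block, Ifitm1 alone was called after MCAo in each genotype (adjusted p = 1.01e-04 and 9.59e-04), no other member was called, and the member medians were −0.21, −0.12, −0.02, 0.09 and 0.14 for genotype after sham, genotype after MCAo, MCAo in CTRL, MCAo in YT-iKO and the difference. Ifitm1 had only 20 to 47 counts in the sham libraries.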

Other observations

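The near copies of members that the list leaves out gave values of their own. Ifit3b had 36.9 CPM in CTRL sham, 58.6 CPM in CTRL MCAo, 34.8 CPM in YT-iKO sham and 62.5 CPM in YT-iKO MCAo (means), and its log2 fold change after MCAo was 0.67 (SE 0.30, adjusted p = 1) in CTRL and 0.84 (SE 0.30, adjusted p = 0.786) in YT-iKO by edgeR. Of the members, 12 share exon bases with another gene of the table, 6 of them with a gene on the same strand, and none shares as much as 20% of its exon bases with such a gene. With genes of the annotation outside the table, Ifitm2 shares 40.9% of its exon bases (Gm45717) and Gbp6 29.0% (Gm43302), both on the same strand.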
